A study of Mus musculus with 20 samples.

Results

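The genes described here are Nfe2l2, which encodes the transcription factor NRF2, 6 classical NRF2 targets (Nqo1, Gclc, Gclm, Hmox1, Txnrd1 and Srxn1), the carbonyl reductases Cbr1 and Cbr3, and Htatip2, a short-chain dehydrogenase-like protein. They are 10 of the 29915 rows of the read count table, taken by symbol. Htatip2 and Cbr1 were added to the list because they were higher in fasted K556R livers. For these genes the genotype contrast in fasted livers, feeding within 1 genotype and the interaction are therefore given as descriptions with no test. All 10 genes passed the filter on low counts.

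Messenger RNA of male mice on chow was sequenced from whole liver. Prox1 K556R mice carried, in hepatocytes, a Prox1 protein with a lysine replaced by arginine, a site where the small protein SUMO is otherwise attached; Prox1 is a homeodomain corepressor of metabolic genes. Cre recombination at 8 weeks of age induced this form, and liver was collected 11 weeks later at Zeitgeber times 15 to 17, in a cycle of 12 h light and 12 h dark. The 4 groups were K556R refed, wild-type (WT) refed, K556R fasted and WT fasted, each with 5 libraries. The titles call the genotypes Cre and Ctrl, so K556R and an action of the recombinase cannot be told apart. The promoter that drives Cre and the hours of fasting and refeeding were not stated in the labels. Libraries are named by replicate and batch, such as 1_b1: 14 belonged to batch 1 and 6 to batch 2, which held 3 of the K556R refed libraries and 1 of each other group.

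Total counts were 33746054 to 50647297 per library. The 5 hepatocyte markers summed to between 92520 and 131400 CPM (counts scaled to a common library total) in every library. Prox1 itself averaged 75.5 ± 12.1 CPM in K556R refed and 110 ± 15.7 CPM in WT refed livers, and 105 ± 15.7 CPM in K556R fasted and 185 ± 38.6 CPM in WT fasted livers (SD, n = 5 each); these counts do not separate the K556R and WT forms of the transcript. The K556R libraries fasted 1_b1 and refed 1_b1 stood apart from the other 18. On the second principal component they lay at −39.5 and −57.3, against −8.06 to 10.7 for the rest, and their 5 proliferation markers summed to 12.3 and 30.4 CPM, against at most 6.84 CPM elsewhere. Results that rest on them are given with and without them.

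NRF2 is a basic leucine zipper activator of genes that make glutathione, reduce quinones and carbonyls and break down heme. KEAP1 holds it in the cytoplasm and presents it to a CUL3 ubiquitin ligase for degradation, and when oxidants or electrophiles modify KEAP1, NRF2 accumulates, pairs with a small MAF protein and binds antioxidant response elements; BACH1 competes for the same elements as a repressor. In liver this system is known for protection against drugs, metals and reactive products of metabolism, and most of its control acts on the NRF2 protein and not on its messenger RNA.

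RefSeq start sites on GRCm38.p6 gave promoter windows (250 bases before to 50 after a start) for 8 of the 10 genes, 11 windows in all. The core of the antioxidant response element was searched on both strands as TGACNNNGC. It was found in 6 of the 11 windows, in Nfe2l2, Gclm, the second of 3 Txnrd1 starts, Srxn1 and both Htatip2 starts, and not in those of Nqo1, Cbr1 or Cbr3; 12.4% of all 32851 windows of this length hold it. The windows printed are those of Srxn1, which had the largest rise on refeeding among the 10 genes, and the added genes Htatip2 and Cbr1, with and without a match. They are Srxn1 at chr2:152105274-152105573, Htatip2 start 1 at chr7:49758856-49759155, Htatip2 start 2 at chr7:49759262-49759561 and Cbr1 at chr16:93607587-93607886, all on the plus strand and written 5′ to 3′, with the match in capitals (a match on the other strand reads GCNNNGTCA here).
Srxn1: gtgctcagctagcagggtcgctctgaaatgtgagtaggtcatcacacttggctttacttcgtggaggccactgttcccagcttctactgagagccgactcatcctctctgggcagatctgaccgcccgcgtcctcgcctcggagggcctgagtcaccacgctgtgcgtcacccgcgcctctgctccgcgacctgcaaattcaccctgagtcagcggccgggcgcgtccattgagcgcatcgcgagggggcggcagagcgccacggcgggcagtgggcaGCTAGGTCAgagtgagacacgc
Htatip2 start 1: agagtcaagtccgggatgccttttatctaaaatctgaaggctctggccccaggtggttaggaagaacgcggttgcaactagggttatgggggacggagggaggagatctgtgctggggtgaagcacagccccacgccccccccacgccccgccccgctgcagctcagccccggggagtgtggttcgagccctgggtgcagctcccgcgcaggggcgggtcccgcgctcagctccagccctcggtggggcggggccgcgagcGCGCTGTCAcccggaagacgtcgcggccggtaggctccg
Htatip2 start 2: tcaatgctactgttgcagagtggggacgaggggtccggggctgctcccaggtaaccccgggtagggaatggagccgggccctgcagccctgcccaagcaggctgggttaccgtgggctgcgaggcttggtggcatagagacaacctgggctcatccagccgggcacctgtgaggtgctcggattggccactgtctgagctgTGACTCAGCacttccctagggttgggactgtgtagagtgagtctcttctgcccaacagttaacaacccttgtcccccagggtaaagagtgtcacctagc
Cbr1: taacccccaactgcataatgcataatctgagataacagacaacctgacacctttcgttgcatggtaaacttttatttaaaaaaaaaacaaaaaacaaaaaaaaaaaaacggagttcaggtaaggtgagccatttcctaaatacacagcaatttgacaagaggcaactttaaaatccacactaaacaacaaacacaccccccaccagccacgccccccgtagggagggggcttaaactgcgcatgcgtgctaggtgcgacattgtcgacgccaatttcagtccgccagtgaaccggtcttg
Counted from the start site as 1, the match began at 29 in Srxn1, at 12 in Htatip2 start 1 and at −49 in Htatip2 start 2. The last, TGACTCAGC, also holds TGACTCA, the letters of an AP-1 site. On the other strand these letters read TGAGTCA, which the Srxn1 window also holds, outside its marked match. A match of letters is a description and not a measured binding site. Bases outside the windows were not searched, so a window without a match does not show that its gene lacks the element.

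In GENCODE M21 on GRCm38 the 10 genes lie on 7 chromosomes, and all are protein coding. Htatip2 spans chr7:49759115-49773975. Cbr1 (chr16:93605853-93610505) and Cbr3 (chr16:93683215-93690990) lie on the plus strand of chromosome 16, 72.7 kb apart with 3 genes between them, 1 of them coding. The promoter window of Cbr1 lies inside this span of the gene, so the bases before its GENCODE start were not searched. CPM per kilobase of exon, which allow levels to be compared between genes, averaged 68.6 ± 14.4 over the 20 libraries for Gclc, the highest, and 29.4 ± 4.72 for Cbr1, the next. Nfe2l2, Txnrd1 and Gclm followed at 19.9 ± 3.03, 19.2 ± 1.61 and 18.9 ± 1.29, and do not differ beyond their spread. Htatip2 (13.7 ± 2.57), Srxn1 (12.5 ± 4.54) and Hmox1 (10.6 ± 5.59) came next and do not differ beyond this pooled spread, which includes feeding changes. Within refed livers Hmox1 lay below both other genes without overlap in either genotype. In K556R refed libraries it reached at most 9.303, against at least 12.75 for Htatip2 and 15.12 for Srxn1. In fasted livers Hmox1 overlapped both in each genotype. Nqo1 at 3.62 ± 1.25 and Cbr3 at 0.365 ± 0.143 CPM per kilobase were the lowest (SD, n = 20 each). Of the transcript sequences of these genes cut into 50-base words, 8 genes shared none with another gene; Gclm shared 4.58% of its words, mostly with the antisense transcript Gm17494, and Cbr1 shared 1.85%, almost all with Gm5678, so the counts of Gclm and Cbr1 are less certain.

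The next question was how refeeding moved the genes. Averaged over both genotypes, 6 of the 10 genes rose and 1 fell at an adjusted p under 0.05 (edgeR quasi-likelihood F test, Benjamini-Hochberg over 13894 genes), where 55.7% of all genes tested were called, 27.1% higher and 28.6% lower. Of the 8 genes that were not chosen for their fasted levels, 5 rose and 1 fell. The median over the 10 genes was 0.18 on the log2 scale, against 0.0008 over all genes. Upper-quartile scaling turned the 3768 higher and 3975 lower calls over all genes into 4619 higher and 3313 lower, and left the count of these genes at 6 and 1. Srxn1 and Hmox1 moved furthest, in opposite directions. As the data are from whole liver, fewer cells of a type and less RNA per cell cannot be told apart here.

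**Figure D1:**
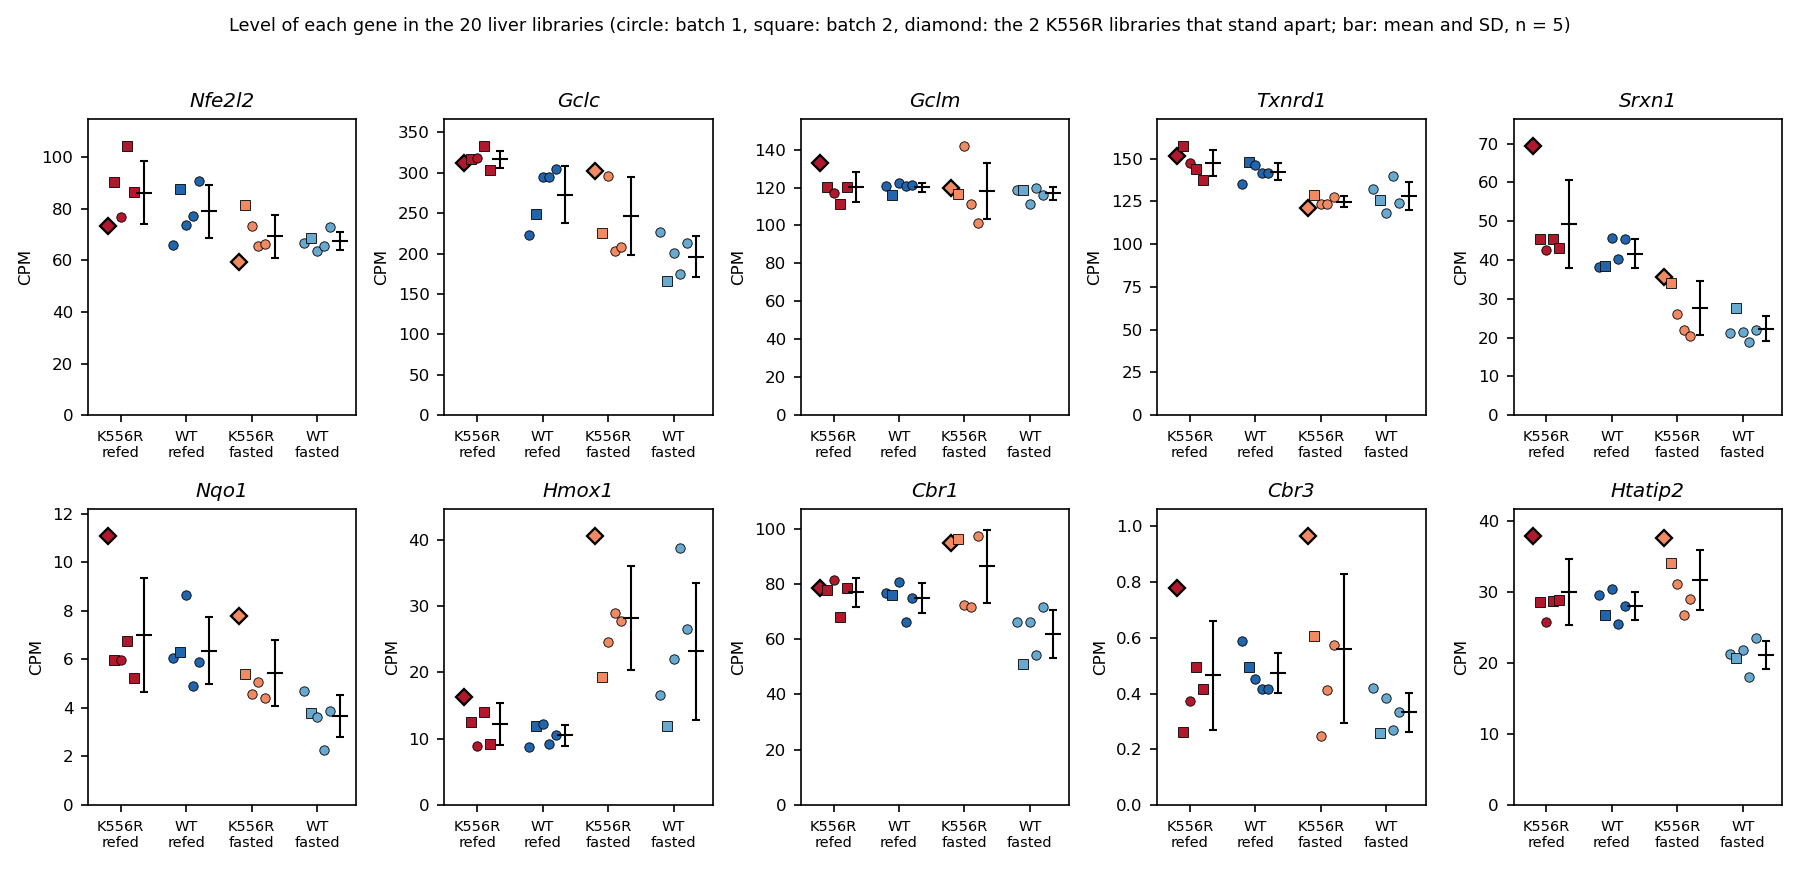
Level of each gene in CPM (vertical axis, from 0) in the 20 libraries, by group on the horizontal axis (K556R refed, WT refed, K556R fasted, WT fasted). Circles are batch 1, squares batch 2 and diamonds the K556R libraries fasted 1_b1 and refed 1_b1; bars are mean and SD of 5 libraries. Srxn1 lies at 38.2 to 69.3 CPM in all refed libraries and at 18.9 to 35.6 CPM in all fasted ones, and Htatip2 of WT fasted liver lies below every other group.

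Nfe2l2, the gene of NRF2, averaged 86.3 ± 12.2 CPM in K556R refed and 79.1 ± 10.3 CPM in WT refed livers, and 69.3 ± 8.48 CPM in K556R fasted and 67.6 ± 3.597 CPM in WT fasted livers (SD, n = 5 each). Refed and fasted libraries overlapped in both genotypes. The change on refeeding was 0.22 on the log2 scale (SE 0.06), 1.17-fold, with an adjusted p of 0.00344 in edgeR.

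Gclc and Gclm encode the catalytic and the modifier subunit of glutamate-cysteine ligase, the rate-limiting enzyme of glutathione synthesis. Gclc measured 312, 318, 317, 333 and 303 CPM in the 5 K556R refed libraries and 303, 296, 204, 208 and 226 CPM in the 5 K556R fasted ones. In WT it measured 223, 294, 295, 304 and 248.5 CPM refed, against 226, 200, 175, 213 and 166 CPM fasted. Every refed K556R library lay above every fasted one, by less than 1 CPM at the closest pair, whereas in WT the lowest refed library lay just under the highest fasted one. Gclc rose 1.36-fold on refeeding (log2 change 0.45, SE 0.08, edgeR adjusted p = 0.000108). Gclm, by contrast, lay at 111 to 133 CPM in K556R refed, 116 to 122 CPM in WT refed, 102 to 142 CPM in K556R fasted and 112 to 120 CPM in WT fasted livers. Its change of 0.04 had a 95% interval of −0.06 to 0.14 on the log2 scale and did not pass the test (edgeR adjusted p = 0.504).

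Txnrd1 encodes the cytosolic thioredoxin reductase, and Srxn1 encodes sulfiredoxin, which restores overoxidised peroxiredoxins. Txnrd1 averaged 147.5 ± 7.55 CPM in K556R refed and 125 ± 3.12 CPM in K556R fasted livers, without overlap, and 142.5 ± 5.17 CPM in WT refed and 128 ± 8.31 CPM in WT fasted livers, which overlapped (SD, n = 5 each). Its rise was 1.15-fold (log2 change 0.20, SE 0.04, edgeR adjusted p = 0.000258).

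Srxn1 measured 69.3, 42.6, 45.5, 45.4 and 43.0 CPM in K556R refed libraries and 35.6, 26.0, 21.9, 20.5 and 34.1 CPM in K556R fasted ones. In WT it measured 38.2, 45.6, 40.4, 45.5 and 38.4 CPM refed, against 21.3, 21.4, 18.9, 21.9 and 27.7 CPM fasted. The groups did not overlap in either genotype, and K556R refed 1_b1, a library that stands apart, was the highest of all 20. Srxn1 rose 1.82-fold (log2 change 0.86, SE 0.11, edgeR adjusted p = 3.00e-06). Within batch 1 the difference was 1.098 in K556R and 1.018 in WT, and within batch 2, with 1 fasted library of each genotype, 0.39 in K556R and 0.47 in WT.

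Nqo1 encodes a quinone reductase that uses NADH or NADPH and is widely read as a marker of NRF2 activity. It measured 11.1, 5.97, 5.98, 6.76 and 5.22 CPM in K556R refed livers and 7.77, 4.58, 5.06, 4.39 and 5.41 CPM in K556R fasted livers. In WT it measured 6.07, 8.67, 4.89, 5.87 and 6.32 CPM refed, against 4.70, 3.63, 2.28, 3.89 and 3.79 CPM fasted. The feeding states overlapped in K556R and not in WT, and the K556R 1_b1 library was the highest of its group in both states. Over both genotypes Nqo1 rose 1.52-fold (log2 change 0.61, SE 0.15, edgeR adjusted p = 0.00227). In K556R alone the change was 0.42 (SE 0.22, edgeR adjusted p = 0.137), 0.27 without the libraries set apart and 0.56 (edgeR adjusted p = 0.0466) without K556R fasted 1_b1 alone. In WT alone it was 0.79 (SE 0.22, edgeR adjusted p = 0.00549). The difference between these changes, K556R minus WT, did not pass the test (−0.37, SE 0.31, edgeR adjusted p = 1.00).

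Hmox1 encodes heme oxygenase 1, which breaks heme down to biliverdin, iron and carbon monoxide. It measured 16.3, 8.89, 12.6, 14.1 and 9.20 CPM in K556R refed libraries and 40.6, 24.6, 28.9, 27.7 and 19.3 CPM in K556R fasted ones, without overlap. In WT it measured 8.78, 12.3, 9.15, 10.6 and 11.9 CPM refed and 16.5, 22.1, 38.8, 26.6 and 11.9 CPM fasted, and the lowest fasted library, 1_b2, lay among the refed ones. Hmox1 fell to 0.476 of its fasted level (log2 change −1.07, SE 0.19, edgeR adjusted p = 0.000116), the only one of the 10 genes to fall. Within batch 1 the difference was −1.31 in K556R and −1.29 in WT. Within batch 2 it was −0.71 in K556R and −0.005 in WT, with 1 WT library of each feeding state. Macrophages of the liver also express Hmox1. Their 5 markers were above 0 in every library and summed to 60.3 to 127 CPM in K556R refed, 49.7 to 81.6 CPM in WT refed, 58.5 to 81.3 CPM in K556R fasted and 34.0 to 194 CPM in WT fasted livers; their part in the Hmox1 result was not tested.

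Taken by genotype, and without Htatip2 and Cbr1, edgeR called 4 of 8 genes higher and 1 lower on refeeding in K556R livers (all genes tested: 39.9%, of which 19.6% higher and 20.3% lower), and 5 of 8 higher and 1 lower in WT livers (all genes tested: 45.1%, of which 20.9% higher and 24.2% lower). The Nfe2l2 calls within 1 genotype lay near the threshold: the one in K556R was lost in 14 of the 20 fits that left out a single library and the one in WT in 5 of 20, and the Txnrd1 call in WT was lost in 4 of 20. The count of calls in WT was 4 of 8 without WT fasted 1_b2 and also without WT fasted 2_b1. In K556R the refed libraries lay wholly above the fasted ones for Gclc, Txnrd1 and Srxn1 and wholly below for Hmox1 (all genes tested: 12.8% above and 14.1% below). In WT they lay wholly above for Nqo1 and Srxn1 (all genes tested: 15.9% above). Htatip2 is left out here, as it was chosen on the fasted values, and is described below. WT fasted 1_b2 lay at −14.4 on the first principal component, against −45.7 to −21.1 for the other fasted libraries and 26.9 to 38.0 for the refed ones.

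**Figure D2:**
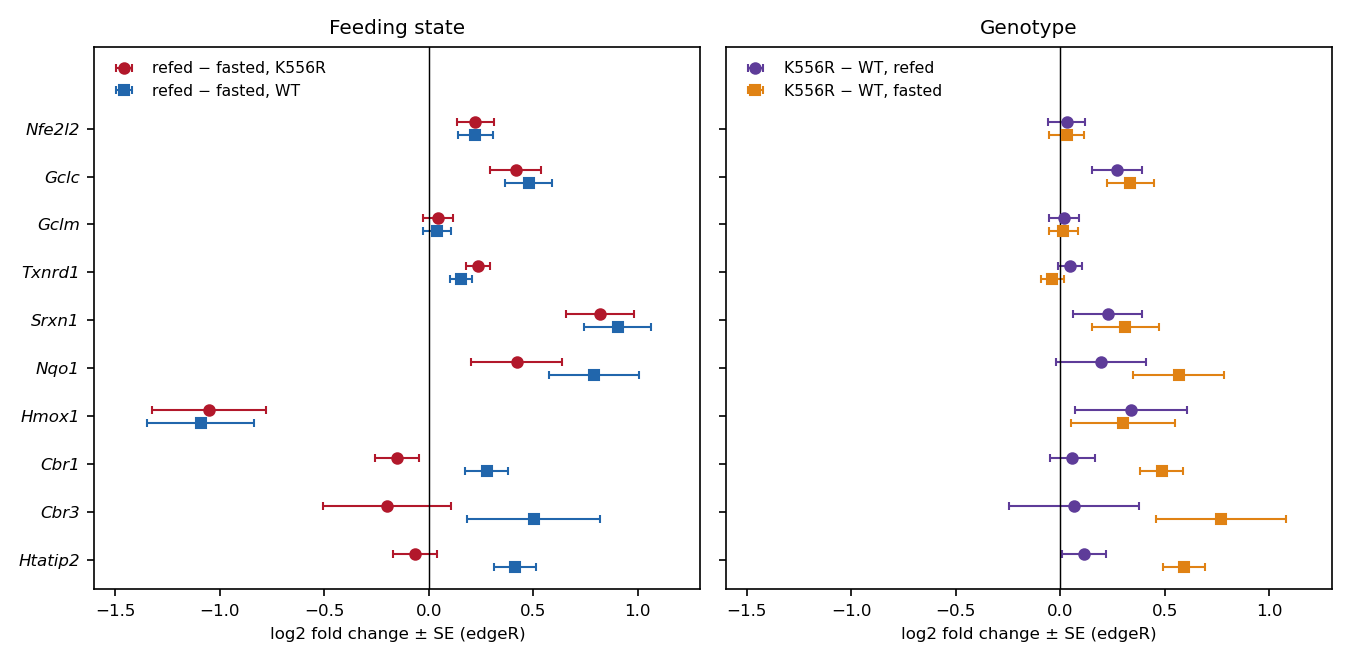
Log2 fold changes with SE from edgeR (horizontal axis) for the 10 genes, refed minus fasted in K556R and in WT livers on the left and K556R minus WT in refed and in fasted livers on the right. The 2 feeding changes lie close together for Nfe2l2, Gclc, Gclm, Txnrd1, Srxn1 and Hmox1. They lie further apart for Nqo1 (0.42 in K556R and 0.79 in WT), Cbr1 (−0.15 and 0.28), Cbr3 (−0.20 and 0.50) and Htatip2 (−0.06 and 0.41). Htatip2 and Cbr1 were chosen on fasted values that enter these changes, and none of the other genes passed the test for the interaction.

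CBR1 and CBR3 are NADPH-dependent short-chain dehydrogenases that reduce quinones and other carbonyl compounds, and HTATIP2, also called TIP30 or CC3, belongs to the same superfamily. Htatip2 measured 37.5, 31.2, 26.8, 29.1 and 34.0 CPM in K556R fasted livers, against 21.3, 21.8, 18.1, 23.4 and 20.7 CPM in WT fasted livers. Cbr1 measured 94.7, 72.4, 71.7, 97.3 and 96.2 CPM in K556R fasted livers, against 66.3, 66.2, 54.2, 71.6 and 51.1 CPM in WT fasted livers. The fasted genotypes did not overlap for either gene, although for Cbr1 the lowest K556R library, at 71.7 CPM, barely exceeded the highest WT library, at 71.6 CPM. This is the difference both were chosen for, and 0.367% of all genes were higher in K556R without overlap. The fitted difference was 0.59 (SE 0.10) for Htatip2, 1.51-fold, and 0.49 (SE 0.10) for Cbr1, 1.40-fold; it was 0.52 and 0.45 without the libraries set apart.

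In refed livers, which the choice did not use, the genotypes overlapped for both genes, as for the other 8; 0.619% of all genes had refed genotypes without overlap. Htatip2 measured 37.9, 25.8, 28.6, 28.7 and 28.9 CPM in K556R refed livers, against 29.5, 30.4, 25.5, 28.1 and 26.8 CPM in WT refed livers. Apart from K556R 1_b1 at 37.9 CPM, both groups lay between 25.5 and 30.4 CPM. The difference was 0.11 on the log2 scale with a 95% interval of −0.09 to 0.32 (edgeR adjusted p = 0.965), and −0.04 without the libraries set apart. Cbr1 averaged 76.9 ± 5.11 CPM in K556R refed and 74.9 ± 5.37 CPM in WT refed livers (SD, n = 5 each), a difference of 0.06 with an interval of −0.15 to 0.27 (edgeR adjusted p = 0.978). The fasted estimates of 0.59 and 0.49 lie above both intervals, but as both genes were picked on the fasted values this is a description.

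By genotype, the refed minus fasted difference of Htatip2 was −0.06 (SE 0.10) in K556R livers and 0.41 (SE 0.10) in WT livers, where the feeding states did not overlap. For Cbr1 it was −0.15 (SE 0.11) in K556R and 0.28 (SE 0.10) in WT. The feeding change in K556R minus that in WT was −0.48 (SE 0.15) for Htatip2 and −0.43 (SE 0.15) for Cbr1. Averaged over genotypes, a contrast whose estimate has a correlation of 0 with the one used for the choice, Htatip2 rose 1.13-fold (log2 change 0.17, SE 0.07, edgeR adjusted p = 0.0481), but this call was lost without the libraries set apart (0.13, edgeR adjusted p = 0.0551) and in 15 of the 20 fits that left out a single library (0.11 to 0.23, edgeR adjusted p = 0.0109 to 0.175). Cbr1 changed by 0.06 (SE 0.07) and did not pass (edgeR adjusted p = 0.496).

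Cbr3 was near the lower end of what was measured. It lay at 0.261 to 0.779 CPM in K556R refed, 0.416 to 0.588 CPM in WT refed, 0.249 to 0.965 CPM in K556R fasted and 0.258 to 0.420 CPM in WT fasted livers. The highest K556R value in each feeding state came from 1_b1. The fasted genotype difference was 0.77 (SE 0.31, edgeR adjusted p = 0.512), and 0.48 without the libraries set apart. The refed minus fasted difference was −0.20 (SE 0.31) in K556R and 0.50 (SE 0.32) in WT, and neither passed (edgeR adjusted p = 0.640 in K556R and 0.215 in WT).

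For the genotype question, edgeR called none of the 8 genes in fasted livers and none of the 10 in refed livers, where it called 0% of all genes, and none of the 8 for the interaction of genotype and feeding, where it also called 0%. At an unadjusted p under 0.05 it had 1136 genes (8.18%) in fasted livers, 693 (4.99%) in refed livers and 553 (3.98%) for the interaction. DESeq2 called 68 genes in fasted livers, 6 in refed livers and 1 for the interaction, and limma called 2, 0 and 0; none of the 8 genes not chosen on the fasted values was among them. In fasted livers 7 of these 8 were higher in K556R (47.4% of all genes were), Txnrd1 being the exception at −0.04 (SE 0.05). Nqo1 stood at 0.57 (SE 0.22, edgeR adjusted p = 0.495), Gclc at 0.33 (SE 0.11, edgeR adjusted p = 0.405), Srxn1 at 0.31 (SE 0.16, edgeR adjusted p = 0.647) and Hmox1 at 0.30 (SE 0.25, edgeR adjusted p = 0.847). Without the libraries set apart these were 0.40 for Nqo1, 0.26 for Gclc, 0.18 for Srxn1 and 0.14 for Hmox1. Nfe2l2 and Gclm were at 0.03 and 0.01.

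In refed livers all 10 estimates were above 0 (55.0% of all genes were), between 0.02 for Gclm and 0.34 for Hmox1, with a median of 0.09 against 0.02 over all genes. Gclc had the lowest p, at 0.27 (SE 0.12, edgeR adjusted p = 0.965): 303 to 333 CPM in K556R refed livers, against 223 to 304 CPM in WT refed livers. Without the libraries set apart Gclc stood at 0.30, and 5 estimates turned below 0: Nqo1 at −0.12, Gclm at −0.03, Srxn1 at −0.05, Cbr3 at −0.33 and Htatip2 at −0.04. For the 8 genes other than Htatip2 and Cbr1 the interaction estimates ran from −0.70 for Cbr3 to 0.08, and none passed the test (edgeR adjusted p = 1.00 for Cbr3).

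Variation of the genes beyond the group means was compared pair by pair. After removal of group and batch means from log2 CPM, all 45 pairs were compared over the 20 libraries with permutation tests of 100000 resamples, two-sided. Removing these means leaves fewer independent values than 20, which the permutations did not take into account. The permutation p-values here and in the next paragraph are therefore likely too small. By these tests 5 pairs had Benjamini-Hochberg adjusted p-values under 0.05 for both Pearson's r and Spearman's rho. This count of 5 may be too high. Srxn1 and Htatip2 had r = 0.81 and rho = 0.81 (permutation p = 3e-05 each, adjusted p = 0.00135 each). Nqo1 and Htatip2 had r = 0.81 and rho = 0.77 (permutation p = 8e-05 and 0.00013, adjusted p = 0.0018 and 0.00292). Nqo1 and Srxn1 had r = 0.74 and rho = 0.68 (permutation p = 0.00013 and 0.00137, adjusted p = 0.00195 and 0.0157). Over all 45 pairs the median r was 0.126, or 0.059 without the libraries set apart, and 30 of the 45 were positive. The share of passing pairs among all genes was not computed, so the 5 pairs cannot be read as particular to these genes.

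Cbr3 made the other two pairs, with r = 0.63 to Nqo1 (permutation p = 0.00258, adjusted p = 0.0248) and r = 0.63 to Htatip2 (permutation p = 0.00276, adjusted p = 0.0248), and rho of 0.65 and 0.68 (permutation p = 0.00229 and 0.0014, adjusted p = 0.0206 and 0.0157). Without the 2 libraries farthest from the median of the first gene, r was 0.65 for Srxn1 and Htatip2, 0.70 for Nqo1 and Htatip2, 0.64 for Nqo1 and Srxn1, 0.56 for Nqo1 and Cbr3 and 0.68 for Cbr3 and Htatip2. Without K556R fasted 1_b1 and refed 1_b1 these became 0.54, 0.60, 0.42, 0.30 and 0.25, so that 2 of the 5 kept an r over 0.5. Within batch 1 (14 libraries) they were 0.87, 0.85, 0.77, 0.68 and 0.66. Cbr1 and Htatip2, chosen for the same contrast, had r = 0.49 (permutation p = 0.0295, adjusted p = 0.166) and rho = 0.49 (permutation p = 0.0306, adjusted p = 0.172), and r = 0.60 without the libraries set apart.

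**Figure D3:**
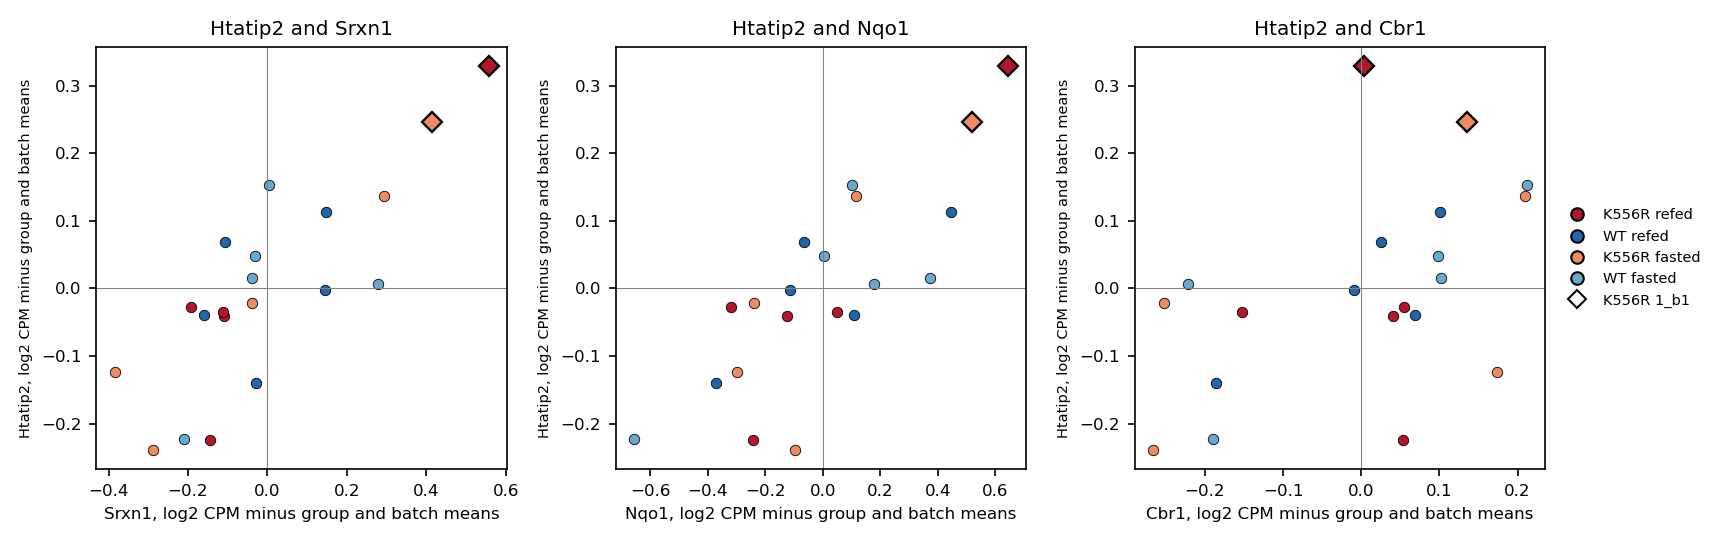
Htatip2 (vertical axis) against Srxn1, Nqo1 and Cbr1 (horizontal axes), each as log2 CPM minus group and batch means, 1 point per library coloured by group. The diamonds are K556R refed 1_b1 and fasted 1_b1, which lie at the upper right for Srxn1 and Nqo1; the r of 0.81 for both pairs is 0.54 and 0.60 without them.

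Among the 13893 other genes tested, those most like Htatip2 by Pearson's r on this scale over the 20 libraries were Slc10a2 (0.928), Fermt1 (0.879) and Anxa5 (0.878), with r of 0.860, 0.718 and 0.777 without the libraries set apart. Those most like Nqo1 were Adora1 (0.876), Eri2 (0.865) and Zfp759 (0.862), at 0.829, 0.754 and 0.803 without them. Cbr1 was most like Grn (0.891), Ccdc51 (0.814) and Tmem37 (0.806), at 0.891, 0.829 and 0.877 without them. These are the highest of many values from the same libraries and are a description.

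Other genes of the pathway were read in 6 lists of 59 genes, of which 56 were tested. Over both genotypes 20 rose and 13 fell on refeeding (edgeR adjusted p under 0.05), a share of 58.9% that is near the 55.7% of all genes called (27.1% higher and 28.6% lower), which is also the background for the counts of the single lists. Among regulators and partners of NRF2, 2 rose and 7 fell of 11, with a median log2 change of −0.39 (0.001 over all genes tested). The small MAF gene Maff averaged 1.04 ± 0.338 CPM in K556R refed and 1.22 ± 0.472 CPM in WT refed livers, and 7.74 ± 2.40 CPM in K556R fasted and 10.8 ± 6.12 CPM in WT fasted livers (SD, n = 5 each). Its log2 change was −2.81 (SE 0.26, edgeR adjusted p = 4.46e-08). Bach1, the repressor gene, changed by −0.99 (SE 0.09, edgeR adjusted p = 8.82e-09) and the ligase gene Cul3 by −0.47 (SE 0.05, edgeR adjusted p = 1.73e-07), while Keap1 rose by 0.21 (SE 0.06, edgeR adjusted p = 0.00253).

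Genes of NADPH supply, which provide the electrons that NQO1, thioredoxin reductase and the carbonyl reductases use, rose in 5 of 6 cases and fell in none, with a median log2 change of 0.50. By genotype 2 of the 6 were called in K556R livers, with a median of 0.20 (all genes tested: 39.9% called, 19.6% higher). In WT livers 5 were called, with a median of 0.73 (all genes tested: 45.1% called, 20.9% higher). No interaction passed in this list. Pgd, an enzyme of the pentose phosphate pathway, averaged 48.3 ± 5.74 CPM in K556R refed and 49.3 ± 7.78 CPM in WT refed livers, and 22.9 ± 2.36 CPM in K556R fasted and 19.5 ± 1.18 CPM in WT fasted livers (SD, n = 5 each), a 2.25-fold rise (log2 change 1.17, SE 0.07, edgeR adjusted p = 3.22e-11). G6pdx, the entry enzyme of the same pathway, rose by 0.91 (SE 0.14) and malic enzyme, Me1, by 0.66 (SE 0.13). Me1 averaged 328.5 ± 151.1 CPM in K556R refed and 396.4 ± 96.53 CPM in WT refed livers. In fasted livers it averaged 219.8 ± 64.89 CPM in K556R and 183 ± 47.45 CPM in WT (SD, n = 5 each). Unlike these means, the estimates take batch into account. Batch 2 held 3 of the K556R refed libraries and 1 of each other group. Me1 stood at 0.17 (SE 0.20, edgeR adjusted p = 0.521) in K556R livers and at 1.14 (SE 0.18, edgeR adjusted p = 5.36e-05) in WT livers, and the interaction of −0.97 (SE 0.27, edgeR adjusted p = 1.00) did not pass. The other glutathione and thioredoxin genes moved little: of 11 tested, 2 rose and 1 fell, with glutathione reductase, Gsr, at 0.29 (SE 0.05), thioredoxin, Txn1, at 0.15 (SE 0.05) and glutaredoxin, Glrx, at −0.31 (SE 0.05).

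Of 7 genes of heme and iron handling 1 rose and 3 fell. The iron exporter ferroportin, Slc40a1, changed by −0.49 (SE 0.10), the porphyrin transporter Abcb6 by −0.24 (SE 0.05) and ferrochelatase, Fech, by −0.22 (SE 0.05). Of 10 genes of detoxification and export 5 rose and 2 fell: the canalicular and the basolateral exporters Abcc2 and Abcc3 changed by −0.62 (SE 0.08) and −0.39 (SE 0.09), and Ugdh, which makes the glucuronic acid donor, by 0.42 (SE 0.10). Of 11 other carbonyl reductases and short-chain dehydrogenases 5 rose and none fell, such as aldose reductase, Akr1b3, at 0.28 (SE 0.09), Dhrs1 at 0.24 (SE 0.06) and the peroxisomal enoyl-CoA reductase Pecr at 0.24 (SE 0.06).

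**Figure D4:**
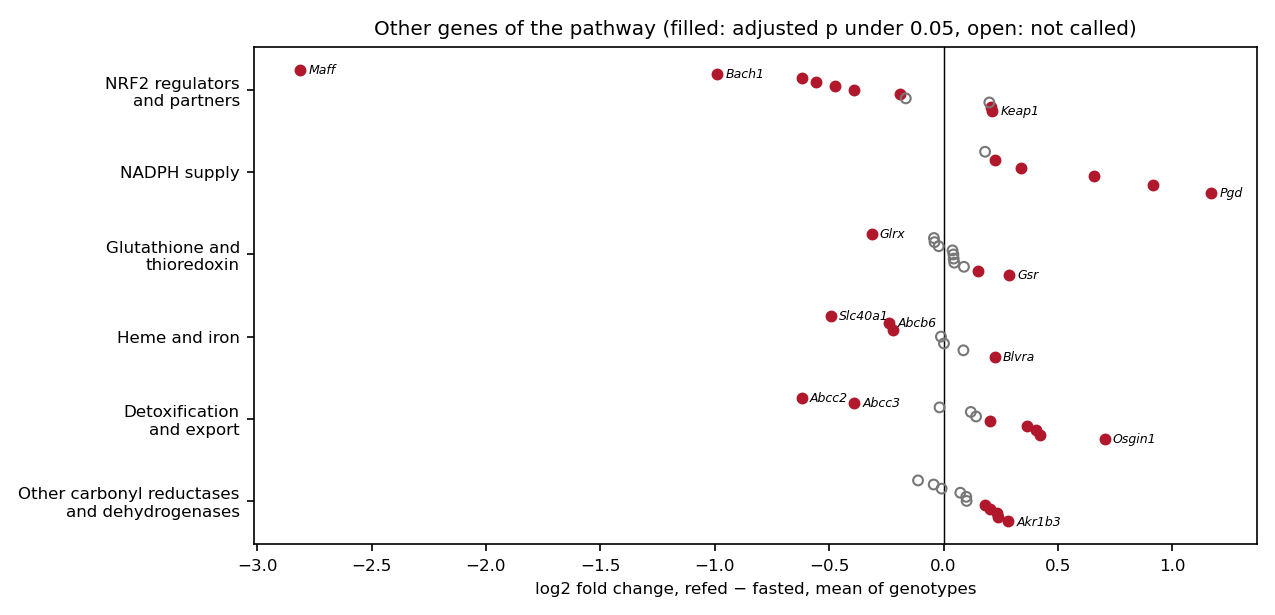
Log2 fold change, refed minus fasted over both genotypes (horizontal axis), of the 56 tested genes in the 6 lists (rows); filled points had an edgeR adjusted p under 0.05 and open points did not. Maff at −2.81 and Pgd at 1.17 are the ends of the range.

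In the genotype contrasts edgeR called 0 of the 56 genes, with lowest adjusted p-values of 0.433 in fasted and 0.818 in refed livers, and 6 genes had an unadjusted p under 0.05 in each, where 8.18% and 4.99% of all genes had. In fasted livers these were Sqstm1, Pgd, Gsr, Gpx4, Ftl1 and Ephx1, at 0.13 to 0.24 on the log2 scale. In refed livers they were Me1 at −0.71 (SE 0.20, edgeR adjusted p = 0.818) and Txnrd2, Glrx, Blvra, Cbr4 and Dhrs7, at −0.29 to −0.20. The refed genotypes overlapped for Me1, at 151.6 to 520.2 CPM in K556R and 262.7 to 497.2 CPM in WT. The part of the batch term in the Me1 estimate was not tested.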

How the data were processed

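The deposited file holds the authors' raw read counts, with 29915 gene symbols in rows and 20 samples in columns. Tools named in the submitters' processing notes are edgeR, DESeq2, TopHat, HTSeq, STAR and STAR-Fusion, with build mm10; which of them made the counts, and in what version, is not given there. Per the labels, poly-T selected RNA went into libraries, and both a directional (dUTP) and a non-directional (dTTP) second strand are described without a choice between them, so a gene and its antisense partner cannot be told apart.

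The test was edgeR's quasi-likelihood F test with robust dispersion (edgeR 4.0.16 in R 4.3.3). Genes were filtered by filterByExpr with a minimum count of 10 and a total of 15, scaled by TMM, and fitted in 1 model of all 20 samples with terms for group and batch. The contrasts were genotype within each feeding state, feeding within each genotype and over both, and the interaction. Benjamini-Hochberg adjustment covered all 13894 genes that passed, and calls were made at 0.05. The SE was derived from the log2 change and its F value. The 95% intervals use a normal approximation with this SE and are narrower than the F test itself would give. Levels are CPM computed from the deposited counts with TMM library sizes; log2 CPM used a prior count of 2. The tests were tried on simulated counts. The labels do not tie repeats to animals, so a p-value reflects only the variation among the libraries, which may be technical.

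The genes and lists, the named-gene rule and the tests were chosen with earlier results of these data known. The rule names all 10 genes, and from each list up to 3 genes with the lowest p on refeeding over both genotypes and up to 2 in each genotype contrast. Keap1 and the genes named for an unadjusted p under 0.05 were added after their values were seen. Hmox1 and Gclc have no window in the RefSeq promoter table used. Adgre1 and Akr1a1 were found under older symbols. The alternatives were DESeq2 1.42.0, limma 3.58.1 with sample quality weights, other scalings (upper-quartile and RLE), other filters, no batch term, batch 1 alone, a replicate block, and fits without single libraries or without those that stand apart.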

Additional observations from a re-analysis of the deposited data

Results flagged for a closer look

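Within each of the 4 groups, each of the 10 genes was examined for a library far from the other 4, by Dixon's criterion; chance flags about 1 in 20 groups, and 3 of 40 were flagged. Srxn1 in K556R refed 1_b1 was the highest of its group at 69.3 CPM, against 42.6 to 45.5 CPM in the other 4. This is one of the libraries that stand apart, with a proliferation marker sum of 30.4 CPM; the part of that in the Srxn1 value was not tested. Cbr1 in K556R refed 2_b2 was the lowest of its group at 68.1 CPM, against 77.9 to 81.4 CPM. Gclm in WT refed 1_b2 was the lowest of its group at 116 CPM, against 121 to 122 CPM, a gap of a few percent. WT refed 1_b2 is the only batch 2 library of its group, and batch was not removed before this check.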

How the results depend on the processing

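No alternative turned the direction of a call on refeeding over both genotypes, and the counts of the 6 lists stayed within 1.5 times of those reported under every alternative run. The Htatip2 call over both genotypes was lost in 15 of 20 fits without a single library. It was also lost in batch 1 alone, with the replicate block and without the libraries set apart. Within 1 genotype, the Nfe2l2 call in K556R was lost in 14 of 20 such fits and with limma. Batch 1 alone, the replicate block and leaving out the libraries set apart also lost it. The Nfe2l2 call in WT was lost in 5 of 20, with no batch term and in batch 1 alone. The Txnrd1 call in WT was lost in 4 of 20 and in batch 1 alone. Both WT calls were also lost when WT fasted 1_b2 was left out together with the libraries set apart. The Gclc call in K556R was lost in batch 1 alone and with the replicate block. In fasted livers DESeq2 called 68 genes between genotypes (21 higher, 47 lower in K556R) and limma called 2; DESeq2 called 6 genes in refed livers and 1 for the interaction. The signs of small refed genotype differences depended on the setting: limma gave Gclm −0.0082 and Cbr3 −0.2469, and Cbr3 stood at −0.0057 with no batch term. In batch 1 alone Nfe2l2 was −0.0234 fasted and −0.0377 refed between genotypes, Cbr3 changed by 0.0628 on refeeding in K556R, and 3 of the 8 genes other than Htatip2 and Cbr1 were called on refeeding in K556R.

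Replicate numbers showed little sign of pairing the samples, although low correlations cannot exclude it. Of 24 same-numbered pairs of libraries 4 had a correlation over 0.1 (range −0.371 to 0.650), and 4 of 18 libraries correlated best with their own number. The highest, 0.650, was that of K556R fasted 1_b1 and K556R refed 1_b1, the libraries that stand apart. A replicate block gave 3 of these 8 genes called on refeeding in K556R, 6 of the 10 over both genotypes, and Cbr3 at −0.1788 between refed genotypes.

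Without the 2 K556R libraries that stand apart, 1 gene was called between fasted genotypes. Refed genotype differences then were Nqo1 −0.1225, Gclm −0.0284, Srxn1 −0.0473, Cbr3 −0.3256 and Htatip2 −0.0399, and the feeding change of Gclm in K556R was 0. Without WT fasted 1_b2 as well, these were Nqo1 −0.1239, Gclm −0.0199, Srxn1 −0.0134, Cbr3 −0.405 and Htatip2 −0.059, with Hmox1 at −0.0581 between fasted genotypes, and Cbr3 at −0.0127 on refeeding over both. Both sets were chosen after the data were seen.

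Leaving out 1 library at a time gave 0 to 2 genes between fasted genotypes (2 without WT fasted 3_b1 or K556R fasted 3_b1), none of them among the 8 genes, and 0 to 1 between refed genotypes. On refeeding it gave 4 to 5 of the 8 genes in K556R and 4 to 6 in WT. Fasted genotype differences ran from −0.0184 to 0.0717 for Nfe2l2 and −0.0588 to 0.0658 for Gclm. Refed ones ran from −0.0137 to 0.0922 for Nfe2l2, −0.0924 to 0.3099 for Nqo1, −0.0277 to 0.0377 for Gclm, −0.0218 to 0.2819 for Srxn1, −0.2668 to 0.1949 for Cbr3 and −0.0253 to 0.1899 for Htatip2; the lowest values of Nqo1, Srxn1, Cbr3 and Htatip2 came without K556R refed 1_b1. On refeeding in K556R Gclm ran from −0.0022 to 0.1093 and Cbr3 from −0.5346 to 0.0347, and over both genotypes Cbr3 ran from −0.0196 to 0.2668. Cbr3, under 1 CPM in every library, had the largest errors of the 10 genes.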
